A study of Mus musculus with 5 samples.

Results

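Gata3 encodes a zinc finger transcription factor of T cells, and the H3K27ac peaks at this gene and across the gene-poor stretch on its 3′ side are described here. H3K27ac is the acetylation of lysine 27 of histone H3, a mark of active promoters and enhancers. The members were all H3K27ac peaks lying between positions 8850000 and 9950000 of mouse chromosome 2 (mm10), which gave 103 of the 124158 peaks of the series. The rule itself uses position and no measured value. Of the 103 peaks, 95 were intergenic, 7 overlapped the annotated span of Gata3 and 1 lay in its upstream neighbour Taf3.

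The mark was profiled by CUT&Tag, in which an antibody directs a Tn5 transposase to the chromatin that carries it, in regulatory T (Treg) cells purified from large intestine. All mice were C57BL/6, 2 weeks old, and carried a Cre recombinase fused to YFP under the control of Foxp3, the Treg lineage factor. Ctrl mice (Foxp3CreSetd2flox/+) had 1 floxed and 1 normal allele of Setd2, the methyltransferase that writes H3K36me3, whereas KO mice (Foxp3CreSetd2flox/flox) had both alleles floxed. The Treg cells of Ctrl mice thus themselves had 1 deficient Setd2 allele. Each genotype had 2 libraries (n = 2), each from sorted YFP+ cells pooled from several littermates of both sexes. With pooled cells, a change in the share of GATA3+ Treg cells and a change in acetylation per cell cannot be told apart.

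GATA3 binds the letters GATA in DNA. It drives T cell development and the type 2 helper T cell program, and in Treg cells it marks a tissue population, prominent in the gut, that expresses the IL-33 receptor ST2 (encoded by Il1rl1). Its gene lies beside a long stretch without other protein-coding genes, and enhancers far from such developmental regulators commonly lie in stretches of this kind.

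Depth was modest. The libraries held 2395002 and 3630447 counts in peaks for Ctrl and 3007444 and 4712473 for KO. Values are CPM, that is, counts in relation to the effective size of a library. This size was the library's counts in tested peaks (at least 10 counts in 2 libraries), scaled by TMM, a normalization that assumes most peaks do not change. KO replicate 2 was the deepest library, and strong peaks tended to be higher in it. Values after a loess correction for abundance are thus given beside the fold changes of single items where they differ by over 1.5 times. The correction was fitted separately on peaks, on domains and on gene sums, so corrected values of different kinds are not directly comparable. Sums of zones and of the window used the fit on peaks. The targeted gene, Setd2, had a promoter and gene body sum of 51.6 and 84.2 CPM in Ctrl and 45.8 and 65.4 CPM in KO, and these ranges overlapped. This sum does not show whether the floxed exons were removed. The Treg markers Foxp3, Il2ra, Ctla4 and Ikzf2 all carried the mark, with a summed level of 2052 and 2171 CPM in Ctrl and 2405 and 2827 CPM in KO. All 4 lay higher in both KO libraries than in both Ctrl libraries, beside 13.2% of all tested genes. Their median log2 fold change was 0.37, or 0.19 after the loess correction. With that correction Foxp3 went from 0.49 to 0.46, Ctla4 from 0.50 to 0.32, Il2ra from 0.19 to 0.06 and Ikzf2 from 0.24 to -0.03. Of the T cell markers Cd3e, Cd3g, Cd4 and Lck, 1 lay higher in this way. The part of the Treg marker difference in the results on Gata3 was not tested. Markers of group 2 innate lymphoid cells, which also use GATA3, were lower, with a sum for Il17rb, Hpgds and Id2 of 199 and 134 CPM in Ctrl and 206 and 159 CPM in KO. The epithelial markers Epcam, Vil1 and Cdh1 summed to 43.4 and 54.8 CPM in Ctrl and 65.95 and 45.0 CPM in KO. The groups overlapped in both the innate lymphoid and the epithelial sum. The myeloid markers Csf1r, Spi1 and Cd14 summed to 121.7 and 117.8 CPM in Ctrl and 117.4 and 139.9 CPM in KO. Pecam1 and Cdh5, markers of endothelium, summed to 553 and 830 CPM in Ctrl and 687 and 1043 CPM in KO. Nearly all of this was at Pecam1. Which cells carried the Pecam1 signal was not tested. For stroma, Col1a1 and Pdgfra summed to 9.50 and 5.65 CPM in Ctrl and 4.10 and 2.16 CPM in KO. No peak was assigned to Krt20, Ms4a1, Lyz2, Col3a1, Kdr or Cd8a.

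The DNA under the peaks is shown first, for the start of Gata3, for the strongest peak in each of the 5 leading distal domains and for the stronger of the 2 peaks with an unadjusted p under 0.05. The promoter below is that of RefSeq on GRCm38.p6 (the assembly of mm10), from 250 bases before to 50 bases after the start, on the minus strand at chr2:9878551-9878850, and the capitals mark the transcribed bases.
Gata3 promoter: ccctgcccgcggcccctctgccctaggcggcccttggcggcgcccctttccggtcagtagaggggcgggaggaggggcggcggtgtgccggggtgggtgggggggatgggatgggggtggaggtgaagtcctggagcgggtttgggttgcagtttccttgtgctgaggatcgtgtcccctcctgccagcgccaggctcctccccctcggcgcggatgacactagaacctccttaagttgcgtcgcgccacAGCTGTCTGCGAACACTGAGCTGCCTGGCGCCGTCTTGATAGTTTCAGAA
It was GC-rich, with 67.3% G or C, and held none of the 5 sets of motif letters that were searched on both strands. The GATA set was AGATAA together with the variant TGATAA. RUNX factors were represented by TGTGGTT alone. For ETS factors the letters AGGAAG were used. The AP-1 letters were TGANTCA, where N is any base. Those of STAT factors were TTCNNNGAA in the same notation. Over all 32851 RefSeq promoters of this length, the GATA letters occurred in 18.6%, the ETS letters in 35.4%, the STAT letters in 8.3%, the AP-1 letters in 7.81% and the RUNX letters in 5.27%.

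For each distal peak, the 120 bases that held the most motif matches are shown, on the plus strand of GRCm38.p6, with the matches in capitals. They lie, in the order given, at chr2:9684706-9684825, chr2:9518409-9518528, chr2:9593681-9593800, chr2:9577429-9577548, chr2:9368138-9368257 and chr2:8946816-8946935. Names give the distance of the midpoint of the peak from the Gata3 start.
Peak at 193.6 kb: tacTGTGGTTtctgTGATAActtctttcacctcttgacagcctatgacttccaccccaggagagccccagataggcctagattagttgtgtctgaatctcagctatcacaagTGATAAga
Peak at 358.9 kb: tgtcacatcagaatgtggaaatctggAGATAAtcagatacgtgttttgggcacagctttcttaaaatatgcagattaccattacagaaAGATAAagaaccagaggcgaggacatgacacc
Peak at 284.5 kb: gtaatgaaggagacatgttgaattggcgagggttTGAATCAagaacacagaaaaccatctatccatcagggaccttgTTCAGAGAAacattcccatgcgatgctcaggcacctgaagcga
Peak at 300.4 kb: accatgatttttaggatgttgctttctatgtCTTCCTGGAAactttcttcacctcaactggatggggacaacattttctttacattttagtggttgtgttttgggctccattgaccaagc
Peak at 510.1 kb: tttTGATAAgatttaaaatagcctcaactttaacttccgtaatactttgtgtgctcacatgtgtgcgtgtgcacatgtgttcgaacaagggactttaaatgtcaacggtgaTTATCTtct
Peak at 931.7 kb: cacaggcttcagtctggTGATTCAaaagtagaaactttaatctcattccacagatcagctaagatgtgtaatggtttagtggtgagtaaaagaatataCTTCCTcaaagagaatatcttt
The stretch at 193.6 kb held 2 GATA matches and 1 RUNX match, and those at 358.9 and 510.1 kb held 2 GATA matches each. At 284.5 kb an AP-1 and a STAT match lay in the stretch, at 931.7 kb an AP-1 and an ETS match, and at 300.4 kb an ETS and a STAT match that overlapped each other. Stretches chosen for their matches show where such letters lie and not how common they are. In the central 300 bases of the 91 window peaks at least that long, GATA letters occurred in 30.8%, ETS letters in 41.8%, AP-1 letters in 14.3%, STAT letters in 11.0% and RUNX letters in 6.59%. Over all 30328 intergenic peaks searched in the same way, the shares were 25.3%, 37.1%, 10.8%, 9.25% and 7.88%. GATA letters were less dense inside the window peaks, at 1.0 match per kb, than over the whole 1100 kb window, at 1.59 per kb, and STAT letters had 0.369 against 0.41 per kb. The ETS letters were denser inside the peaks (1.73 against 1.41 per kb), as were those of AP-1 (0.548 against 0.359) and RUNX (0.316 against 0.237). A match is a description of letters and not of binding.

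Gata3 (ENSMUSG00000015619.10, minus strand, chr2:9857078-9890034) started at position 9878600 and had 6 exons in its basic transcript. H3K27ac at the gene was dominated by 1 broad peak of 13491 bp at chr2:9866802-9880292, which ran from 1.7 kb upstream of the start to 11.8 kb downstream and covered exons 1 to 4 and the introns between them. It ranked 87 by width and 116 by mean CPM among all 124158 peaks. The antisense RNA gene Gm13256 overlaps this peak, and CUT&Tag carries no strand, so the signal cannot be divided between the 2 genes.

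The broad peak held 207.2 and 204.5 CPM in Ctrl replicates 1 and 2, compared with 244.8 and 309.1 CPM in KO replicates 1 and 2. The groups did not overlap, and KO replicate 2 was the highest. The log2 fold change of KO against Ctrl was 0.43 (SE 0.25, unadjusted p 0.0861, edgeR adjusted p 0.998), and it was 0.13 after the loess correction and 0.25 without KO replicate 2. The difference thus did not pass the test.

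Inside the last introns, a peak of 2477 bp at 18.3 kb carried 20.4 and 22.0 CPM in Ctrl and 25.3 and 23.2 CPM in KO (edgeR adjusted p 0.998 for a log2 fold change of 0.19 with an SE of 0.38, or 0.11 after the correction). A narrow peak at 15.8 kb had 4.52 and 1.19 CPM in Ctrl and 4.47 and 4.31 CPM in KO, so that the groups overlapped. The fourth peak of the gene, at 14.0 kb, held 6 and 5 counts in Ctrl and 10 and 6 counts in KO and was too low to be tested. None of these smaller peaks overlapped an exon of the basic transcript.

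Summed over these 4 peaks, Gata3 had 235 and 229 CPM in Ctrl and 278 and 338 CPM in KO, which placed it at rank 579 of the 14386 genes with a peak. Both KO libraries were higher than both Ctrl libraries, and the difference did not pass an adjusted p of 0.05 in the fit without a replicate term (log2 fold change 0.41, SE 0.21, unadjusted p 0.0815, edgeR adjusted p 1.0). Of all 12739 genes tested, 0.0% passed an adjusted p of 0.05, and 48.2% had a log2 fold change above 0. At an unadjusted p under 0.05, edgeR gave 89 genes higher and 322 lower, and DESeq2 gave 80 higher and 189 lower with 0 called. Without KO replicate 2 the log2 fold change of Gata3 was 0.26, and without KO replicate 1 it was 0.54. After the loess correction, here fitted on gene sums, it was 0.32.

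**Figure D1:**
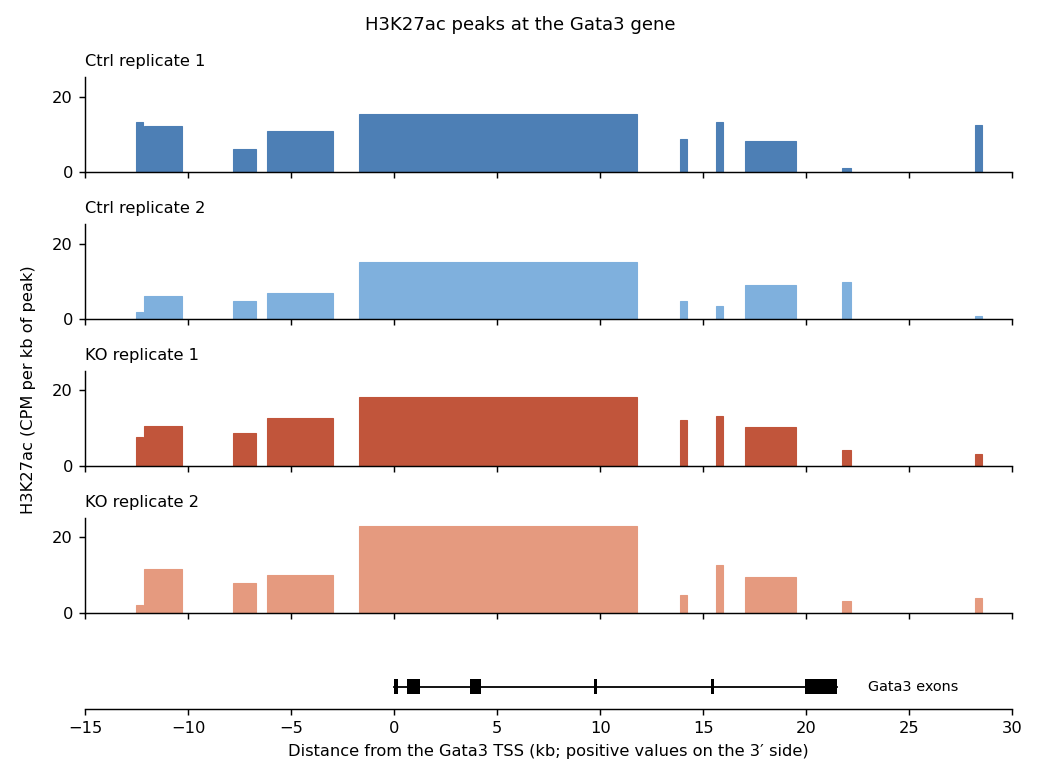
H3K27ac of each peak in CPM per kb of peak (vertical axis) against the distance from the Gata3 start in kb (horizontal axis), in 1 panel for each library; black boxes are exons of the basic transcript. In every panel the broad peak from 1.7 kb upstream to 11.8 kb downstream is the largest block of signal, with 204.5 to 309.1 CPM in all.

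On the other side of the start, 3 peaks lay within the annotated span of Gata3 but over overlapping gene models. The peak at 4.6 kb upstream, at the promoter of 4930412O13Rik, had 35.3 and 22.3 CPM in Ctrl and 40.6 and 32.1 CPM in KO. A pair of peaks in 9230102O04Rik, at 7.3 and 11.2 kb upstream, summed to 29.4 and 16.4 CPM in Ctrl and 28.7 and 29.9 CPM in KO. Ctrl and KO overlapped in both sums. Because these models overlap Gata3, their peaks cannot be assigned to 1 gene, and they were counted in the Gata3 zone below but not in the sum of its 4 peaks. Beyond them, the 2 narrow peaks at 12.4 and 17.7 kb upstream were too low to be tested. The peak at 60.4 kb, in the gene body of Taf3, had 4.98 and 8.63 CPM in Ctrl against 2.61 and 3.59 CPM in KO (edgeR adjusted p 0.998 for a log2 fold change of -1.13 with an SE of 0.73). Taf3, which encodes a subunit of the general transcription factor TFIID, starts its annotated span 24.5 kb from that of Gata3.

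On the 3′ side the next protein-coding gene, Celf2, ended 2348 kb from Gata3, and the mark filled only the nearer part of this stretch. The 1007 kb inside the window held 93 peaks with 640 CPM in all (mean of the 4 libraries). The remaining 1340 kb towards Celf2 held 6 peaks with 8.84 CPM, of which 1 was high enough to be tested. By the count of intergenic peaks nearest to its start, Gata3 ranked 5 of 7745 genes, with 93 peaks against a median of 2. Only Myc (137), 3110018I06Rik (106), Satb1 (103) and Btg1 (101) had more. These genes were named after their values were seen. By summed CPM over such peaks Gata3 ranked 13, against a median of 6.59 CPM per gene. Neither rank takes into account the length of intergenic sequence beside each gene, which is long for Gata3.

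**Figure D2:**
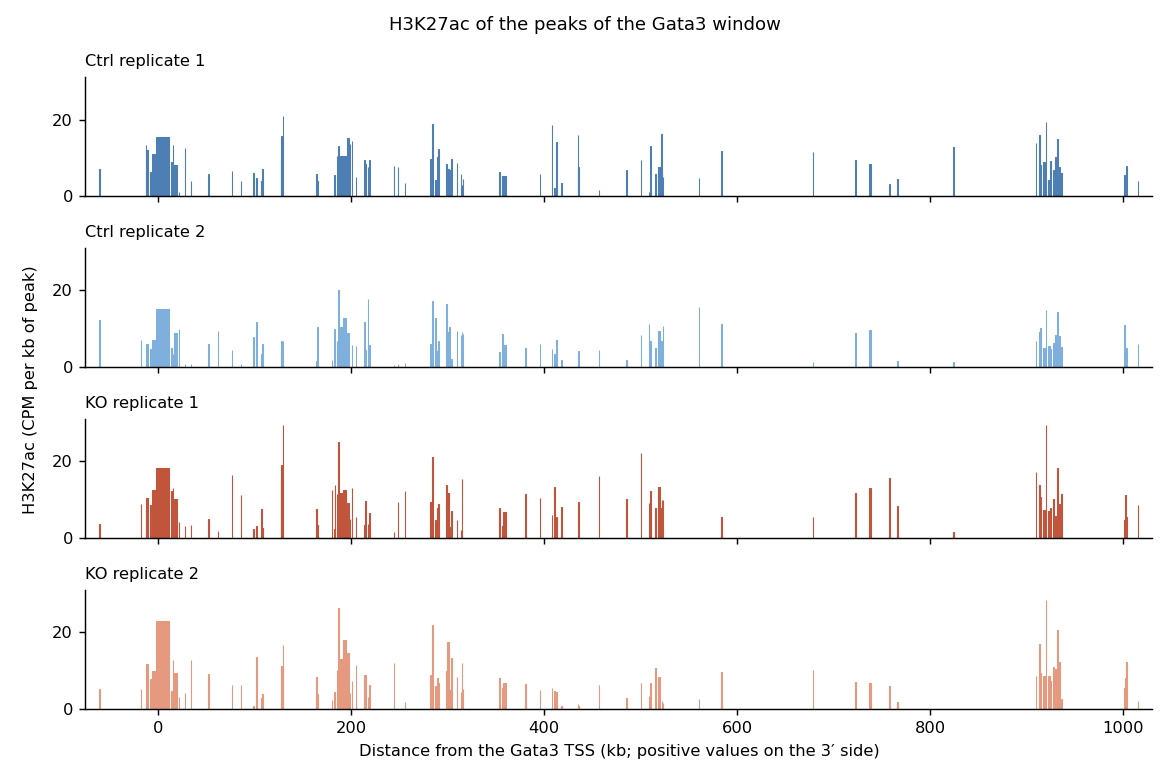
H3K27ac of the 103 window peaks in CPM per kb of peak (vertical axis) against the distance from the Gata3 start in kb (horizontal axis), in 1 panel for each library; the width of a bar is that of the peak. All 4 libraries show the block at the gene and clusters near 190, 285 and 920 kb, with few peaks between 600 and 900 kb.

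The distal peaks were grouped into domains by joining intergenic peaks with gaps of at most 10 kb. The window held 28 of the 16507 domains of the genome, and 21 of these 28 passed the count filter of 10 counts in 2 libraries. The strongest, at 180.2 to 220.1 kb (chr2:9658473-9698428), comprised 15 peaks and had 164 and 162 CPM in Ctrl and 183 and 208 CPM in KO. It ranked 175 by mean CPM among all domains. A far domain at 908.9 to 936.5 kb (chr2:8942063-8969715), with 13 peaks, ranked 273 and had 125 and 99.1 CPM in Ctrl and 142 and 148 CPM in KO. Both KO libraries exceeded both Ctrl libraries in these 2 domains.

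The third domain, at 282.0 to 315.9 kb (chr2:9562658-9596641), had 98.6 and 97.3 CPM in Ctrl and 101 and 116 CPM in KO, with rank 364. It ran over the long noncoding RNA gene Gm13218. The fourth, at 500.1 to 523.5 kb (chr2:9355136-9378487) within the noncoding RNA gene Gm13219, had 52.5 and 47.3 CPM in Ctrl and 69.3 and 34.5 CPM in KO, so that the 2 KO libraries lay on either side of Ctrl. The fifth, at 353.3 to 360.2 kb (chr2:9518393-9525266), was smaller, with 22.2 and 21.7 CPM in Ctrl and 26.8 and 27.5 CPM in KO. The order of these 5 domains by CPM was the same in 4 of 4 libraries. In all, 3 window domains were among the highest 5% of domains by mean CPM, the median domain having 2.74 CPM.

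None of the 21 tested domains differed between KO and Ctrl at an adjusted p of 0.05 in edgeR, where 0.0127% of all 7879 tested domains did. The log2 fold changes of the 5 leading domains, from the strongest down, were 0.26 (SE 0.24), 0.37 (SE 0.26), 0.15 (SE 0.27), 0.05 (SE 0.35) and 0.31 (SE 0.42). With the loess correction they were 0.10, 0.24, 0.02, -0.08 and 0.24. Leaving out KO replicate 2 lowered the first of these to 0.165 and the third to 0.0489, and without KO replicate 1 the third was 0.237. The far domain was at 0.212 without Ctrl replicate 2, and the fourth changed sign with single libraries. Of the 21 domains, 16 had a fold change above 0, beside 57.9% of all tested domains. This count was 12 after the correction, 12 without KO replicate 1, and 10 both in DESeq2 and without Ctrl replicate 2. The median log2 fold change of all tested domains moved with the setting as well. It was 0.09 in the main fit, -0.02 after the correction and -0.14 without KO replicate 1. In DESeq2 it was -0.01, and without Ctrl replicate 2 it was 0.02. The share of 57.9% belongs to the main fit alone, so it cannot be set against the other counts. In 5 of the 21 both KO libraries exceeded both Ctrl libraries, beside 17.4% of all tested domains. The smallest unadjusted p among the 21 was 0.0769 in edgeR and 0.118 in DESeq2, so 0 passed an unadjusted p of 0.05 in either tool. Over all 7879 tested domains, edgeR gave 53 higher and 58 lower at that threshold, and DESeq2 gave 18 higher and 74 lower.

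**Figure D3:**
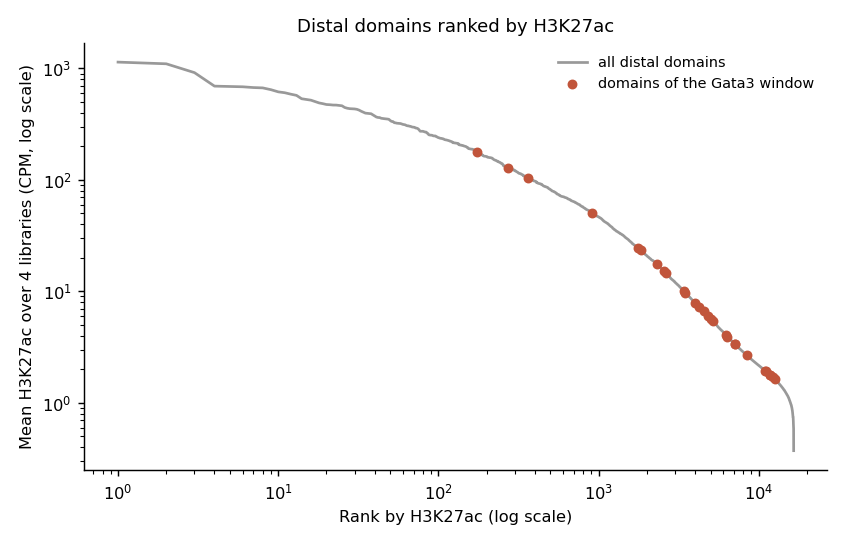
Mean H3K27ac over the 4 libraries in CPM (vertical axis, log scale) of all 16507 distal domains against their rank (horizontal axis, log scale), with the 28 domains of the Gata3 window as points. The 3 leading points sit at ranks 175, 273 and 364, and the others spread down to the weakest domains.

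The strongest single distal peaks were neighbours in the first domain. The highest was the peak at 193.6 kb (chr2:9683420-9686611) with 33.5 and 41.1 CPM in Ctrl and 40.2 and 57.3 CPM in KO, where Ctrl replicate 2 exceeded KO replicate 1. The peak at 190.0 kb had 35.7 and 35.7 CPM in Ctrl and 39.9 and 43.6 CPM in KO. At 187.0 kb, 23.5 and 35.7 CPM in Ctrl stood against 44.7 and 47.0 CPM in KO, with no overlap (log2 fold change 0.62, SE 0.33, unadjusted p 0.0596, edgeR adjusted p 0.998). This fold change was 0.361 without Ctrl replicate 1 and 0.962 without Ctrl replicate 2. The peak at 196.9 kb had 30.3 and 17.9 CPM in Ctrl and 18.3 and 28.7 CPM in KO, so that the replicates of each group differed by more than the group means.

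In the third domain, the peak at 284.5 kb (chr2:9593406-9594843), over Gm13218, had 27.2 and 24.7 CPM in Ctrl and 30.6 and 31.4 CPM in KO. In the same domain, the peak at 300.4 kb (chr2:9577429-9578973), whose bases are shown above, had 10.9 and 14.0 CPM in Ctrl and 18.3 and 27.1 CPM in KO (log2 fold change 0.86, SE 0.42, unadjusted p 0.0394, edgeR adjusted p 0.998). In the far domain, the peak at 931.7 kb (chr2:8946342-8947489) had 17.2 and 16.4 CPM in Ctrl and 20.9 and 23.7 CPM in KO. In these 3 peaks the KO libraries exceeded Ctrl without overlap. Also in that domain, the peak at 913.2 kb had 19.0 and 11.0 CPM in Ctrl and 16.4 and 20.1 CPM in KO, with overlapping groups. At 919.7 kb the 2 Ctrl libraries had 14.0 and 10.7 CPM and the 2 KO libraries 21.2 and 20.4 CPM, without overlap (edgeR adjusted p 0.998 for a log2 fold change of 0.76 with an SE of 0.43). The lone peak at 737.5 kb, between the clusters, had 15.4 and 17.9 CPM in Ctrl and 24.2 and 12.5 CPM in KO, so that the groups overlapped.

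Of the 103 peaks, 59 had at least 10 counts in at least 2 libraries and were tested, and 0 passed an adjusted p of 0.05 in edgeR or DESeq2, beside 0.00134% of the 74550 tested peaks of the genome in edgeR. At an unadjusted p under 0.05, DESeq2 gave 0 window peaks, beside 1468 of all 74550 tested peaks. With edgeR there were 2 at that threshold, both higher in KO, or 2 of 59 beside 4.24% of all tested peaks. They were the peak at 300.4 kb and a weak one at 410.5 kb (chr2:9467690-9468532), which held 4 and 10 counts in Ctrl and 30 and 16 counts in KO (log2 fold change 1.57, SE 0.76, unadjusted p 0.0399). Without KO replicate 1 the peak at 410.5 kb fell to 0.648 (edgeR unadjusted p 0.61), and without KO replicate 2 the peak at 300.4 kb fell to 0.544 (edgeR unadjusted p 0.359). Without Ctrl replicate 1 their p-values also rose above 0.05 (edgeR unadjusted p 0.135 and 0.142). The smallest adjusted p in the window was 0.998.

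By direction, 41 of the 59 tested peaks had a fold change above 0 and 18 below, beside 49.2% above 0 over all tested peaks, and the median log2 fold change was 0.24 beside -0.01. On the 3′ side alone, 35 of 52 tested peaks were above 0, with a median of 0.215, beside 57.7% and 0.113 for all 16618 tested intergenic peaks. After the loess correction the counts over the window were again 41 and 18, but without Ctrl replicate 2 they were 31 and 28. Both KO libraries exceeded both Ctrl libraries in 19 of the 59, beside 16.9% of all tested peaks, and both lay below in 10, beside 16.4%. On the 3′ side the counts were 16 above and 9 below of 52, beside 3382 (20.4%) and 1766 of the 16618 tested intergenic peaks. Among the 22 window peaks of at least 10 CPM, 20 were above 0, and among the 37 weaker ones 21 were. Over all tested peaks, 62.0% of those of at least 10 CPM and 43.8% of the weaker ones were above 0. A count filter can favour peaks that are high in 1 group. Of the 59, 3 passed through the KO libraries alone and 0 through Ctrl alone, beside 4458 and 2186 of all 74550 tested peaks. Without the filter, the KO mean was the higher in 66 of 103 members, beside 49.5% of all peaks. The peaks share libraries and neighbours, so these counts describe the window and are not a test of it.

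**Figure D4:**
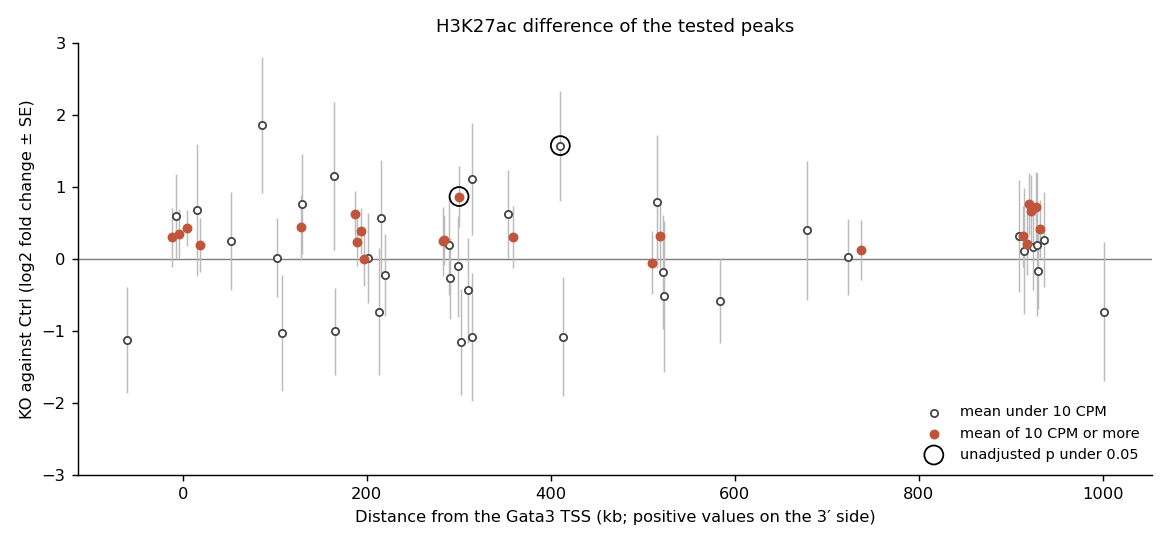
Log2 fold change of KO against Ctrl with its SE (vertical axis) for the 59 tested peaks against the distance from the Gata3 start in kb (horizontal axis); filled points have a mean of at least 10 CPM and rings mark the 2 peaks with an unadjusted p under 0.05. Of the 22 filled points 20 lie above 0, and the open points scatter on both sides.

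Replicates of 1 genotype also differed from each other. Over the 59 tested peaks, the median absolute log2 difference between the 2 Ctrl libraries was 0.64, and between the 2 KO libraries it was 0.39 (log2 of CPM + 0.5). Between genotypes, the 4 pairs of libraries had medians of 0.40 to 0.70. The differences between genotypes at single peaks thus lay on both sides of that between the Ctrl replicates.

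To add up the weak peaks, counts were summed by distance from the Gata3 start. The gene itself, with its 7 peaks, was the highest zone, where Ctrl averaged 284 ± 22.4 CPM and KO 374 ± 37.1 CPM (SD, n = 2 per genotype). The first 200 kb on the 3′ side followed, with 198 ± 1.51 CPM for Ctrl and 241 ± 12.7 CPM for KO. Next came 200 to 400 kb with 156 ± 10.2 and 173 ± 6.46 CPM, and then the zone beyond 800 kb with 125 ± 20.9 and 156 ± 4.04 CPM. Lower were 400 to 600 kb, with 83.5 ± 12.4 and 80.85 ± 37.4 CPM, 600 to 800 kb, with 30.9 ± 3.68 and 37.0 ± 14.05 CPM, and the 5′ side, with 10.7 ± 1.70 and 7.40 ± 1.66 CPM. This order was the same in 4 of 4 libraries, so H3K27ac did not fall steadily with distance but rose again beyond 800 kb. Per kb covered by peaks, the zones were more alike, from 14.4 CPM at the gene and 10.2 CPM in the first 200 kb to 9.27 CPM beyond 800 kb, 7.63 CPM at 400 to 600 kb and 6.38 CPM on the 5′ side.

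Both KO libraries exceeded both Ctrl libraries in the gene zone and in 3 of the 5 zones on the 3′ side, namely 0 to 200, 200 to 400 and beyond 800 kb. The log2 differences there were 0.40, 0.28, 0.15 and 0.33. Without Ctrl replicate 2 the difference at 200 to 400 kb was 0.0863 and that beyond 800 kb was 0.163, and without Ctrl replicate 1 the latter was 0.506. In the gene zone the difference was 0.17 after the loess correction, and at 200 to 400 kb the groups overlapped when total counts were used as library size. The groups overlapped at 400 to 600 kb (-0.12, or -0.08 after the correction) and at 600 to 800 kb (0.21, or 0.11), and on the 5′ side both KO libraries lay below Ctrl (-0.54, or -0.311 without KO replicate 2) on few counts, 21 to 40 per library. An exact two-sided permutation test of 2 against 2 libraries cannot give a p below 0.333, which was the value for every zone without overlap (0.466 after Benjamini-Hochberg adjustment over the 7 zones).

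**Figure D5:**
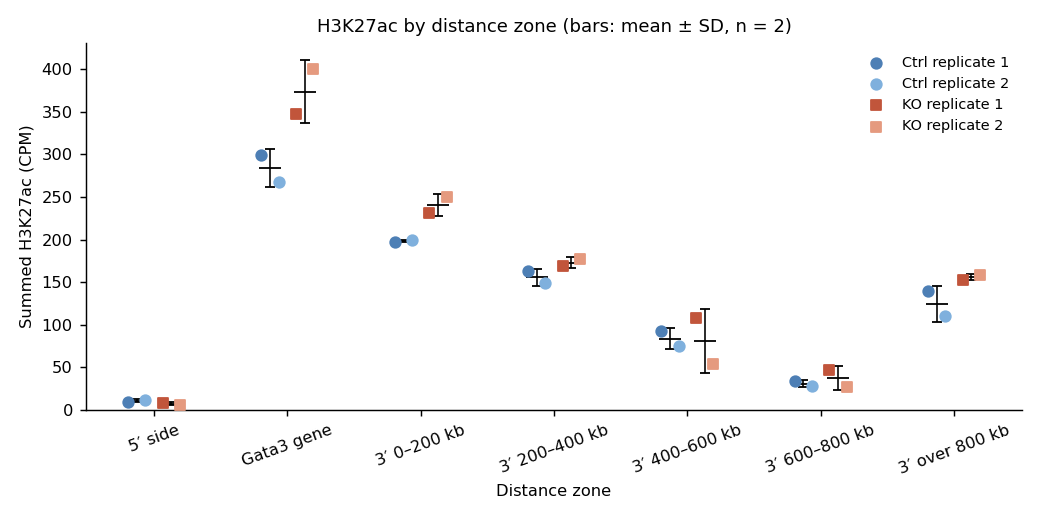
Summed H3K27ac in CPM (vertical axis) in each distance zone (horizontal axis), with 1 point per library, circles for Ctrl and squares for KO, and black bars for the mean ± SD (n = 2). The KO squares lie above the Ctrl circles at the gene, from 0 to 200 kb, from 200 to 400 kb and beyond 800 kb, and the groups overlap between 400 and 800 kb.

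Over the whole window, the libraries had 934 and 840 CPM in Ctrl and 1064 and 1074 CPM in KO (log2 difference 0.27, exact permutation p 0.333, two-sided). After the loess correction the log2 difference was 0.18 and the groups overlapped (exact permutation p 0.667). As a share of all counts in peaks this was 0.0862% and 0.0778% in Ctrl (95% Clopper-Pearson intervals 0.0825% to 0.09% and 0.0749% to 0.0807%), and 0.0949% and 0.0951% in KO (0.0915% to 0.0985% and 0.0923% to 0.0979%). The intervals of the KO libraries did not reach those of Ctrl, but they cover counting error only, and would be too narrow if both mates of a read pair had been counted. The 2 Ctrl intervals did not reach each other either.

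The balance between the gene and its distal peaks differed in 1 library. The 3′ side held 2.09 times the CPM of the gene zone in both Ctrl libraries, 2.04 times in KO replicate 1 and 1.67 times in KO replicate 2. The gene zone took 32.1% and 31.9% of the window counts in Ctrl, 32.7% in KO replicate 1 and 37.3% in KO replicate 2 (95% interval 35.8% to 38.7%). In KO replicate 2 the 400 to 600 kb zone took 5.07%, against 8.89% to 10.1% in the other 3 libraries. The 2 KO libraries thus differed from each other here by more than KO replicate 1 differed from Ctrl.

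Among the genes around GATA3, a list of 20 partners and regulators was examined, all of which carried testable signal. In edgeR 0 of the 20 reached an adjusted p of 0.05. A fold change above 0 was found for 17 and below 0 for 3, with a median of 0.21 on the log2 scale beside -0.02 for all genes, and the median was 0.08 after the loess correction and 0.07 without KO replicate 2. Ets1, an ETS factor of lymphocytes, had 977 and 1155 CPM in Ctrl and 1292 and 1661 CPM in KO (log2 fold change 0.47, SE 0.18, unadjusted p 0.0276, edgeR adjusted p 1.0), with 0.20 after the correction. Cbfb, the shared partner subunit of the RUNX factors, went the other way, with 53.8 and 54.5 CPM in Ctrl and 30.2 and 30.7 CPM in KO (log2 fold change -0.83, SE 0.28, unadjusted p 0.0152, edgeR adjusted p 1.0). Both groups were tight for Cbfb, and its value hardly moved with the correction (-0.76).

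The second list held 20 genes of type 2 and tissue Treg programs, of which 18 had testable signal. No peak was assigned to Il13 or Il6. In edgeR 0 of the 18 reached an adjusted p of 0.05. At an unadjusted p under 0.05 there were 0 as well, beside 89 higher and 322 lower of all 12739 tested genes. A fold change above 0 was found for 14 and below 0 for 4, beside 48.2% above 0 over all tested genes. The median log2 fold change was 0.16. Il1rl1 had 57.9 and 64.3 CPM in Ctrl and 71.5 and 61.3 CPM in KO, with overlapping groups (edgeR adjusted p 1.0 for a log2 fold change of 0.12 with an SE of 0.26, or 0.18 after the loess correction). In 8 of the 18 both KO libraries exceeded both Ctrl libraries, beside 13.2% of all tested genes, and in 1, the type 2 cytokine gene Il4, they lay below, beside 17.6%.

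Of the other members of the GATA family, which act mainly in blood, heart and gut lineages, Gata2, Gata4 and Gata6 had no assigned peak. Gata1 had 2.24 to 3.83 CPM and Gata5 2.24 to 4.46 CPM over the 4 libraries, so that Gata3 was the only member of the family above 5 CPM at its promoter and gene body.

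Among the genes most like Gata3 over the 4 libraries, by the root mean square difference in log2 CPM of the promoter and gene body sum, were Fyco1 (0.0377), Cdh23 (0.0689), Hbs1l (0.0983) and 4930469K13Rik (0.105). This likeness covers both level and pattern over 4 values. Each of these 4 genes reached its sum through 19 to 22 peaks, whereas Gata3 had 4. The closest, Fyco1, had 237 and 223 CPM in Ctrl and 284 and 325 CPM in KO.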

How the data were processed

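After read trimming, the authors used Bowtie2 to align reads to mm10, retained unique and non-duplicate reads, used MACS2 with the IgG library as control for peak calling, and pooled the peaks of all libraries with bedtools. Peaks were called on the libraries that were then compared, which ties the peak set to their signal. The deposited values are raw counts of reads in each pooled peak, which were not normalized. The IgG library was not analysed here. Versions are not given in the sources used here. The members and gene lists were chosen with earlier results of these data known.

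Peaks were placed on protein-coding genes of GENCODE vM21 basic, with promoters within 3 kb of a start. KO was compared with Ctrl, 2 libraries each, by the edgeR 4.0.16 quasi-likelihood test (R 4.3.3, no covariate), on peaks, domains and gene sums with at least 10 counts in 2 libraries, with Benjamini-Hochberg adjustment over all tested. The prior degrees of freedom for peaks were infinite, so a peak's own replicate spread did not enter. CPM used TMM on tested peaks. Named items were Gata3 and its peaks, the 10 strongest distal peaks, the 5 strongest domains, window peaks and list members with an unadjusted p under 0.05, Il1rl1, and the 5 genes closest to Gata3, 1 of which is not reported here, nor is the B cell marker sum. The code was tested on simulated counts. Alternatives were DESeq2 1.42.0, other scalings, filters, a robust fit, a replicate block, other joining and promoter limits, and leaving out each library. The labels do not say that the pools were independent, so p-values measure the spread between these libraries.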

Additional observations from a re-analysis of the deposited data

How the results depend on the processing

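No peak and no domain of the window passed an adjusted p of 0.05 under any alternative run, and the log2 fold change of the Gata3 sum stayed above 0, between 0.263 and 0.543. With the replicate number as a block, the Gata3 sum was 0.412 (SE 0.102, edgeR adjusted p 0.00261), and calls over all 12739 genes rose from 0 to 390 higher and 500 lower. The labels do not say what a number marks, so the numbers were not taken as pairs. Deviations of same-numbered libraries correlated with r = 0.24 over 74550 peaks and 0.113 over the 59 window peaks. Genome-wide, the median absolute log2 difference was 0.526 and 0.491 between same-numbered libraries, beside 0.59 within Ctrl and 0.543 within KO. It was 0.58 between Ctrl replicate 1 and KO replicate 2 and 0.633 between Ctrl replicate 2 and KO replicate 1. Over the 59 window peaks, same-numbered libraries had 0.43 and 0.593, beside 0.643 within Ctrl and 0.388 within KO. The block gave 6 of the 59 window peaks and 3 of the 21 window domains an edgeR unadjusted p under 0.05. Over all 74550 tested peaks it gave 3490 higher and 3476 lower, and over all 7879 tested domains 448 higher and 203 lower.

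The difference at 400 to 600 kb became 0.0168 with the 8 tested peaks alone and ranged from -0.61 to 0.37 when 1 library was left out. At 600 to 800 kb that range was -0.184 to 0.61. Some single items turned in sign when 1 library was left out, with ranges of -0.044 to 1.85 for the peak at 15.8 kb, -0.384 to 0.41 at 196.9 kb, -0.419 to 0.537 at 737.5 kb and -0.0502 to 0.735 at 913.2 kb, and of -0.53 to 0.475 for the domain at 500.1 to 523.5 kb. The peak at 196.9 kb was also at 0.0263 under the block, and that domain at -0.0948 in DESeq2, -0.00498 with total counts, -0.078 with the loess offset and -0.0304 under the block. The median of the partner list was 0.0781 with the loess offset and 0.069 to 0.4 when 1 library was left out, and that of the type 2 list 0.16 to 0.235. The causes were not tested. With 2 libraries per group, a lone library is assumed to vary like the other group.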
